A study of Mus musculus with 7 samples.

Results

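RNA-seq profiles of mouse embryonic fibroblasts (MEFs) under ER stress and under glucose depletion were compared directly, without passing through the control. Both treatments lasted 10 h, and each was represented by 1 library out of the 7 in the series. ER stress was 1 μM thapsigargin, a blocker of the SERCA pump that fills the endoplasmic reticulum (ER) with calcium. Glucose depletion was incubation in glucose-free DMEM. The MEFs were wild-type primary cells from E13.5 to E14.4 embryos, used at passages 3 to 7 and plated at 10000 cells per cm2. The other 5 libraries included a control, for which the labels give no time. The rest were glutamine depletion and hypoxia at 0.1% oxygen for 10 h each, and oxidative stress from 10 μM sodium arsenite and osmotic stress from 100 mM NaCl for 3 h each. Whether the thapsigargin and control cultures had a vehicle or a medium change, and whether the glucose-free medium kept pyruvate, is not given in the sources used here.

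Values are TPM, in which the length-corrected transcript shares of a library add up to 1000000. A gene was compared if its TPM averaged 2 or more over the 7 libraries, with symbols that begin with Gm, Mir, Snor or mt-T or contain -ps or -rs left out. These spellings cover many predicted genes, small RNAs and pseudogenes, but entries of the same kinds under other names stayed in. Of 49382 rows in the table, 12909 passed the expression minimum and 1282 of these were left out by name. After 80 rows that repeated a symbol were set aside, 11547 genes remained. Differences are given as ER stress minus glucose depletion on the log2(TPM + 1) scale, so a positive value is higher in ER stress, and a gene was counted as higher or lower past a difference of 2-fold on that scale. For genes near the pseudocount of 1 TPM, this scale shrinks a difference. With 1 library per condition there was no spread between replicates to set a difference against, and no test was possible. TPM holds no read counts, so the depth behind each value is unknown.

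Proteins that are secreted or sit in membranes fold in the ER, where chaperones that need calcium and energy, oxidases that make disulfide bonds and enzymes that add N-glycans act on them. When unfolded proteins build up, the sensors IRE1, PERK and ATF6 start the unfolded protein response, which raises the folding and degradation machinery of the ER. PERK also slows protein synthesis and raises the transcription factor ATF4, the arm known as the integrated stress response, which nutrient shortage can start through other kinases. Glucose feeds the ER as the source of the sugars in N-glycans, and the chaperone BiP was first known as a glucose-regulated protein.

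Hspa5 (ENSMUSG00000026864), the gene of BiP, carries in its promoter the ER stress element, the sequence through which ATF6 and NF-Y act. The stretch before its RefSeq start site is shown because this element also marked other genes that were far apart between the libraries. It covers chr2:34771840-34772089 on the plus strand of GRCm38.p6, read from the RefSeq promoter table, and the capitals mark the fixed letters of the exact element. The GENCODE annotation used below for gene locations begins the gene further upstream, inside this stretch.
Hspa5: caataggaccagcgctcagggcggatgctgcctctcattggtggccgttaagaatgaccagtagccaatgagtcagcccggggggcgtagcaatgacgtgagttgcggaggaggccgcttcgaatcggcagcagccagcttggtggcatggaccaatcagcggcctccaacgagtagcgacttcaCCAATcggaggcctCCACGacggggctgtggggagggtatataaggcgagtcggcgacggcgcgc

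Hspa5 and Txnip, the marker genes of the 2 treatments, were both higher in ER stress. Hspa5 stood at 1165 TPM in the control, 1689 in glucose depletion, 943 in glutamine depletion, 1224 in hypoxia, 784 in oxidative stress, 1034 in osmotic stress and 12611 in ER stress. ER stress was above all 6 other libraries by a wide gap, and glucose depletion was second. The difference between the 2 libraries was 2.90, a TPM ratio of 7.47. The gene lies on chromosome 2 from 34771970 to 34777547 (GRCm38, GENCODE). Txnip, which encodes a thioredoxin-binding arrestin whose transcription follows glucose through MondoA, stood at 70.7 TPM in the control, 16.1 in glucose depletion, 68.7 in glutamine depletion, 91.7 in hypoxia, 44.9 in oxidative stress, 7.22 in osmotic stress and 119.7 in ER stress. Its difference was 2.82, and it lies on chromosome 3 from 96557957 to 96561883. For Txnip glucose depletion was the lower end of the 10 h libraries, with only osmotic stress below it, so the gap came from a low value in one library as well as a high value in the other.

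Over all 11547 genes, 887 were higher in ER stress by over 2-fold (7.68%) and 1041 were lower (9.02%). The median difference was 0.05, and 61.8% of genes were within 1.5-fold. Past 4-fold, 146 genes were higher and 158 lower. Among the 11165 protein-coding genes 824 were higher and 977 lower. Of the 382 others, which include genes without a GENCODE entry, 33.2% were past 2-fold, against 16.1% of the protein-coding genes. Most of the genes past 2-fold were at an extreme of the series in the ER stress library. It was the highest of the 7 for 824 of the 887 higher genes, and the lowest for 950 of the 1041 lower genes, where over all genes it was the highest for 34.7% and the lowest for 25.1%. The genes past 2-fold were picked by their ER stress value, so these high counts follow in part from that choice. Glucose depletion stood more than 2-fold above all 6 others for 7 genes and below them for 3, and ER stress did so for 363 and 423. Compared directly with the control library, 142 genes (1.23%) differed from glucose depletion past 2-fold and 1996 (17.3%) differed from ER stress.

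**Figure D1:**
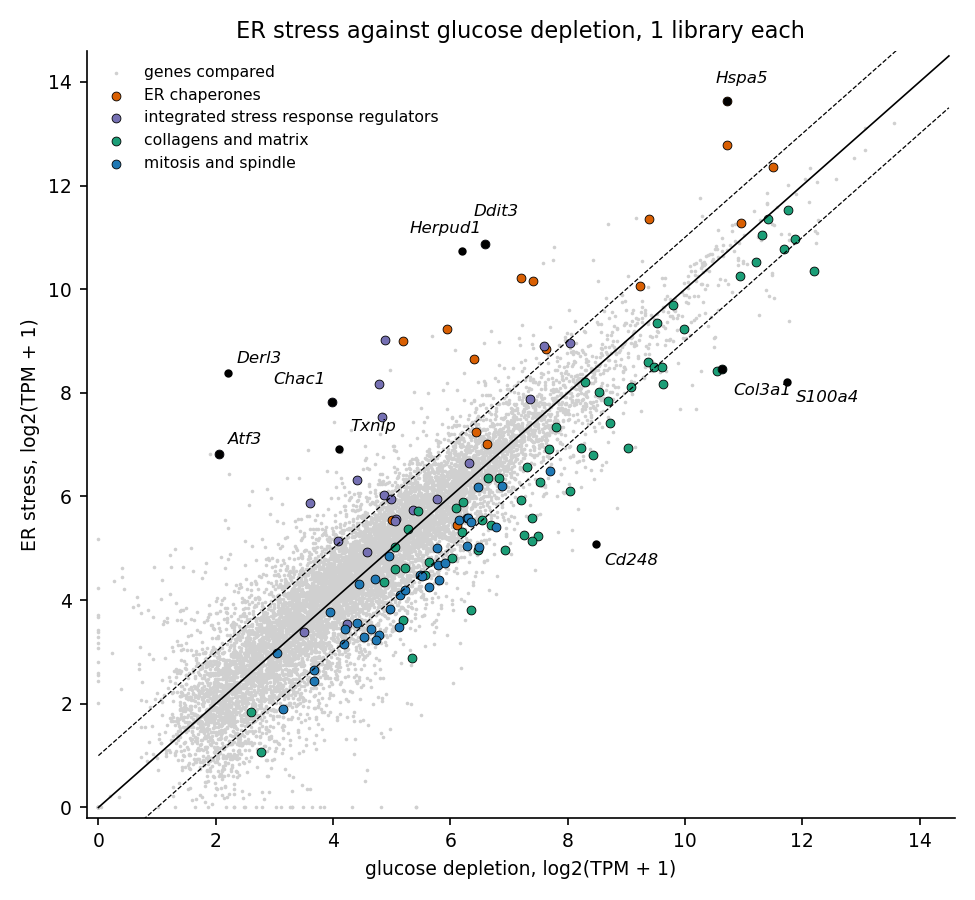
Expression in the ER stress library (vertical axis) against the glucose depletion library (horizontal axis), both as log2(TPM + 1), for the 11547 genes compared. Each point is 1 gene, the solid line marks equal values and the dashed lines 2-fold, and named genes are in black. ER chaperones and integrated stress response regulators reach far above the diagonal, and all 36 mitosis genes and 56 of the 58 collagen and matrix genes lie below it.

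Of the 11 sensors and transcription factors of the unfolded protein response, 4 were higher in ER stress by over 2-fold and 0 lower, with 3 below 0 and a median of 0.94. Here and below, a pair of TPM values gives glucose depletion first and ER stress second, and the value in parentheses is their difference. Atf6, the membrane-bound factor that is cut in the Golgi, was furthest apart, at 23.5 TPM in glucose depletion and 91.2 TPM in ER stress (1.91). Atf4 stood at 260.1 and 773 TPM (1.57). Ern1, which encodes the kinase and nuclease IRE1, stood at 7.15 and 21.4 TPM (1.46), and Eif2ak3, which encodes PERK, at 22.4 and 47.9 TPM (1.06), a value that a pseudocount of 5 TPM puts just inside 2-fold (0.95). Xbp1, whose mRNA is spliced by IRE1, was just inside 2-fold at 120.0 and 239 TPM (0.99), and gene-level TPM do not show its splicing. Creb3l1, a collagen-related factor of the same family as Atf6, stood at 97.7 and 57.5 TPM (-0.75), which for ER stress was the lowest of the 7 libraries.

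ER chaperones showed the highest median of any list, 1.59 over 16 genes, with 9 higher and 0 lower past 2-fold. Together the listed chaperones took 3.57% of the TPM of the ER stress library and 1.05% of the glucose depletion library. Dnajb9, a BiP cochaperone that restrains IRE1, had the largest difference at 3.82, with 31.4 TPM in the control, 35.4 in glucose depletion, 23.0 in glutamine depletion, 32.1 in hypoxia, 35.1 in oxidative stress, 72.2 in osmotic stress and 512 in ER stress. Only osmotic stress, besides ER stress, was well above the rest for it. Sdf2l1, a partner of the J proteins, stood at 31.1 TPM in the control, 60.8 in glucose depletion, 12.1 in glutamine depletion, 40.4 in hypoxia, 12.4 in oxidative stress, 18.2 in osmotic stress and 598 in ER stress (3.28). Creld2 was at 146 and 1193 TPM (3.02), and Hyou1, the exchange factor of BiP, at 168 and 1139.8 TPM (2.75). The abundant chaperone Hsp90b1 (GRP94) went from 1684 to 7025 TPM (2.06). The lectin chaperones that hold N-glycoproteins were closer together, with Calr at 2900.3 and 5242 TPM (0.85) and Canx at 599 and 1063 TPM (0.83).

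Of 24 enzymes that form disulfide bonds and turn proline bonds 6 were higher past 2-fold and 0 lower, 10 were below 0, and the median was 0.41. Pdia4 stood at 294 TPM in the control, 411 in glucose depletion, 229.9 in glutamine depletion, 344 in hypoxia, 208 in oxidative stress, 278 in osmotic stress and 2438 in ER stress (2.57), with ER stress far above and glucose depletion next. The oxidase gene Ero1lb stood at 7.21 and 44.9 TPM (2.49). Its relative Ero1l stood at 46.9 and 145 TPM (1.61), but was highest in hypoxia at 327 TPM. Pdia6 was at 618 and 1482 TPM (1.26). In the other direction Fkbp7, a proline isomerase, was at 85.4 and 46.8 TPM (-0.85), inside 2-fold. ER stress was the lowest of the 7 libraries for 7 of the 24 genes, a share close to the 25.1% over all genes.

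Genes of ER-associated degradation, which carries misfolded proteins back to the cytosol, included the largest difference among all genes compared. Of 24 genes 11 were higher and 0 lower past 2-fold, and the median was 0.97. Derl3 (chromosome 10, 75893413 to 75895941), a membrane component of the export channel complex, stood at 1.65 TPM in the control, 3.64 in glucose depletion, 0.372 in glutamine depletion, 1.52 in hypoxia, 0.300 in oxidative stress, 3.06 in osmotic stress and 331 in ER stress (6.16). ER stress alone was high, and the other 6 libraries were all under 4 TPM. Herpud1, a scaffold of the degradation complex, stood at 102 TPM in the control, 72.7 in glucose depletion, 130.3 in glutamine depletion, 113 in hypoxia, 115 in oxidative stress, 68.2 in osmotic stress and 1698 in ER stress (4.53). Here glucose depletion was near the low end of the series, with only osmotic stress below it. The ubiquitin ligase gene Syvn1 (HRD1) was at 40.5 and 258 TPM (2.64), and that of its partner Sel1l at 94.5 and 497 TPM (2.38). The proteasome, which degrades what is exported, was level within 2-fold, with 0 of 31 subunit genes past it in either direction, a median of -0.05 and a range of -0.53 to 0.41.

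Of 44 genes for entry into the ER and for COPII export 3 were higher past 2-fold and 0 lower, which is no larger a share than the 7.68% of all genes. Differences inside 2-fold lay mostly on the side of ER stress, since 39 of the 44 were above 0, where 53.6% of all genes were, and the median was 0.55, beside 0.05 for all genes. Sec23b, a coat protein of export vesicles, stood at 65.5 and 166 TPM (1.33), and Srprb, a subunit of the receptor for the signal recognition particle, at 69.9 and 166 TPM (1.24). Of the signal peptidase genes Sec11c was at 47.3 and 96.4 TPM (1.01), a value that other scalings put just inside 2-fold, and Sec11a was at 153 and 302 TPM (0.98).

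The N-glycosylation and hexosamine pathway turns glucose into the sugar donors of the ER. Of its 40 genes 6 were higher past 2-fold and 0 lower, beside 7.68% and 9.02% of all genes. Their median was 0.41. Gnpnat1, an enzyme of the hexosamine branch, was at 31.6 and 125 TPM (1.95), and Gfpt1, which opens that branch, at 49.1 and 113 TPM (1.19). Alg12 and Alg2, mannosyltransferases that build the glycan precursor, stood at 11.8 and 38.5 TPM (1.63) and at 25.5 and 63.7 TPM (1.29). Dpm1, a subunit of the enzyme that supplies dolichol-linked mannose, lay the other way at 56.8 and 27.9 TPM, just inside 2-fold on the log2(TPM + 1) scale, and glucose depletion was the highest of the 7 libraries for it.

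Genes of the ER calcium store, which thapsigargin empties, lay on both sides. Atp2a2 (chromosome 5, 122453513 to 122502225), which encodes the SERCA pump that the drug blocks, stood at 149 TPM in the control, 169 in glucose depletion, 160.3 in glutamine depletion, 121 in hypoxia, 153 in oxidative stress, 173 in osmotic stress and 555 in ER stress (1.71). ER stress alone was high, and the other 6 libraries lay between 121 and 173 TPM. Nucb2, a calcium-binding protein, was at 87.7 and 295 TPM (1.74), and Saraf, which limits calcium entry after store loss, at 98.6 and 249 TPM (1.33). Stim2, a sensor of store calcium, was lower, at 22.4 and 6.51 TPM (-1.64). Of the 20 genes 3 were higher and 1 was lower past 2-fold, beside 7.68% and 9.02% of all genes. Their median was 0.31.

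The integrated stress response held some of the widest gaps between the libraries. Of 22 regulators 11 were higher and 0 lower past 2-fold, with a median of 1.02. Ddit3, which encodes CHOP, a transcription factor linked to cell death under ER stress, stood at 136 TPM in the control, 95.9 in glucose depletion, 141 in glutamine depletion, 208 in hypoxia, 177 in oxidative stress, 48.9 in osmotic stress and 1869.5 in ER stress (4.27). Atf3, a stress-induced factor, was at 3.02 TPM in the control, 3.14 in glucose depletion, 21.3 in glutamine depletion, 5.95 in hypoxia, 88.3 in oxidative stress, 13.2 in osmotic stress and 112 in ER stress (4.77), high in oxidative stress as well as ER stress. Ppp1r15a (GADD34), the phosphatase subunit that restarts translation, stood at 38.8 TPM in the control, 28.6 in glucose depletion, 57.9 in glutamine depletion, 43.6 in hypoxia, 68.9 in oxidative stress, 154 in osmotic stress and 514 in ER stress (4.12), with glucose depletion the lowest of the 7. Chac1, which degrades glutathione, was at 26.2 TPM in the control, 14.8 in glucose depletion, 86.8 in glutamine depletion, 25.3 in hypoxia, 69.7 in oxidative stress, 4.28 in osmotic stress and 224 in ER stress (3.83). Trib3, a pseudokinase induced by CHOP, stood at 27.7 and 184 TPM (2.69), and Gadd45a at 26.5 and 286 TPM (3.38).

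Genes that supply amino acids, known targets of ATF4, were higher past 2-fold in ER stress than in cells without glucose for 20 of 30. They were lower past 2-fold for 0, 27 were above 0, and the median was 1.34. Cth, which makes cysteine, stood at 10.8 and 118 TPM (3.33). Slc7a3, a carrier of cationic amino acids, was at 6.29 and 69.5 TPM (3.27), and Slc6a9, a glycine carrier, at 18.9 and 155 TPM (2.97). The shared heavy chain Slc3a2 was the most abundant of the 4 furthest apart, at 201 TPM in the control, 189 in glucose depletion, 301 in glutamine depletion, 218 in hypoxia, 298 in oxidative stress, 184 in osmotic stress and 1454 in ER stress (2.93). The tRNA synthetases of the cytosol followed, with 9 of 20 higher past 2-fold and a median of 0.91. Wars was furthest apart at 60.2 and 292 TPM (2.26), and Mars was the single one below 0, at 67.3 and 43.5 TPM (-0.62).

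The glucose depletion library was also placed among the libraries other than ER stress. Over all genes compared it was the highest of the 6 libraries other than ER stress for 15.9%. Among the ER chaperones it was so for 9 of 16, among the isomerases for 15 of 24, among the entry and export genes for 30 of 44, and in the glycosylation list for 17 of 40. Other ER lists had smaller shares, with 7 of 24 for ER-associated degradation, 3 of 11 for the sensors and factors and 4 of 20 for the calcium store. Among the regulators of the integrated stress response it was so for 0 of 22, among the amino acid genes for 4 of 30, and among the tRNA synthetases for 2 of 20. High shares were not limited to ER lists. Among genes of DNA replication the count was 22 of 42, among targets of YAP and SRF 9 of 21, and among mitosis genes 12 of 36. In TPM the place was a smaller step than the gap up to ER stress for each gene named next. Hspa5 was 1689 in glucose depletion against 784 to 1224 in the other 5 libraries, Creld2 was 146 against 55.3 to 94.0, Manf was 668 against 304 to 448, and Sdf2l1 was 60.8 against 12.1 to 40.4.

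**Figure D2:**
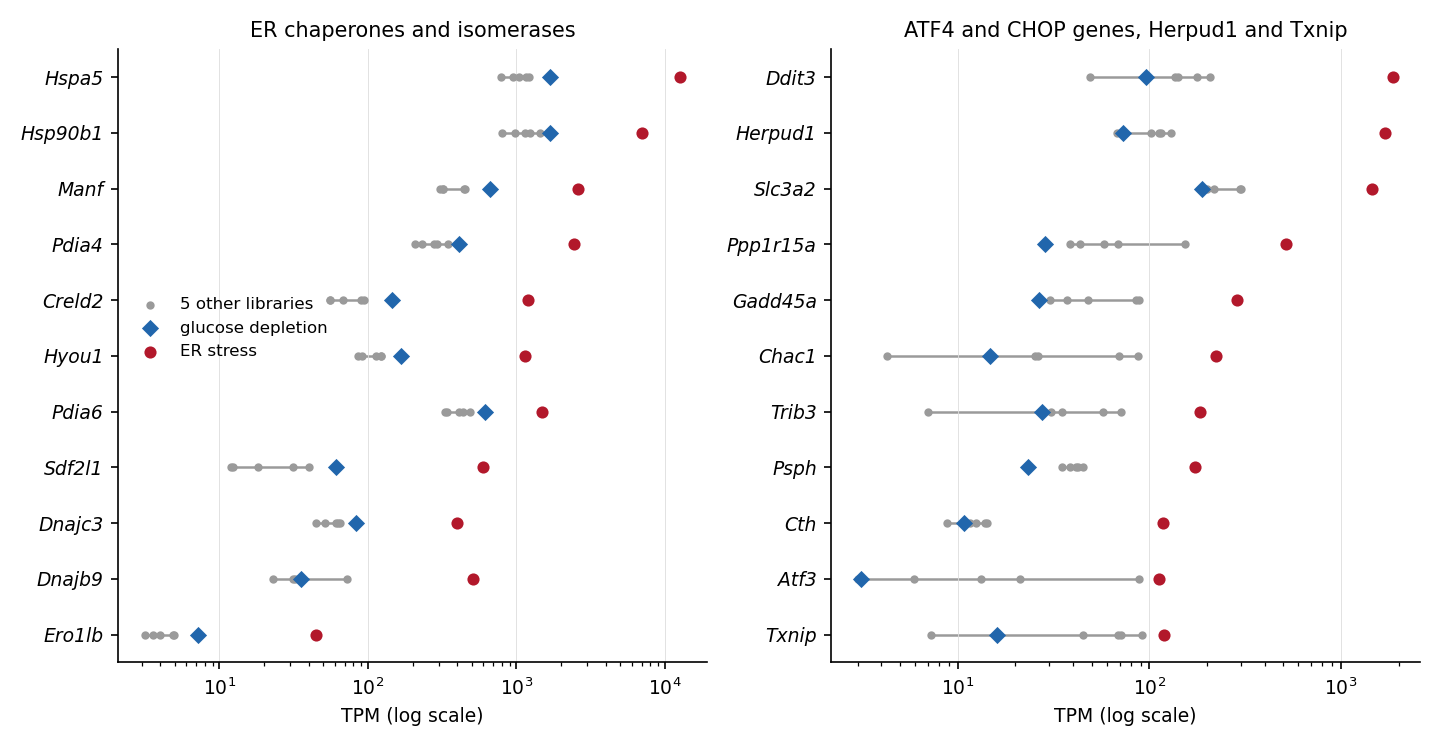
TPM on a log scale (horizontal axis) of ER chaperones and isomerases (left) and of ATF4 and CHOP genes with Herpud1 and Txnip (right) in the 7 libraries, 1 point per library. Red circles are ER stress, blue diamonds glucose depletion and grey points the 5 other libraries, with a line over their range. The genes drawn were chosen from their lists. On the left the diamonds stand above the grey range for all genes drawn but Dnajb9. Over all 40 chaperones and isomerases compared, glucose depletion was above the 5 other libraries for 24. On the right the diamonds stand within the grey range or at or below its lower end.

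The exact ER stress element, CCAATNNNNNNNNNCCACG on either strand, was present in the promoter window (250 bases before to 50 after the start) of 0.137% of the 27025 genes in the RefSeq table. Of the genes compared, 8908 had a window and 16 held the element. Of these 16, 9 were higher in ER stress past 2-fold and 0 lower, with a median of 1.45, where the genes with a window had a median of 0.06. Glucose depletion was the highest of the 6 other libraries for 9 of the 16. The matches of the 9 genes are written 5′ to 3′ along the element, with its fixed letters in capitals.
Derl3 (chr10:75893242-75893260): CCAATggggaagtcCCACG
Creld2 and Alg12 (chr15:88819520-88819538): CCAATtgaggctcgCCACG
Hspa5 (chr2:34772025-34772043): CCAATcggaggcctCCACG
Syvn1 (chr19:6046532-6046550): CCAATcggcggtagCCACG
Zfp57 (chr17:37002492-37002510): CCAATgcctgaatgCCACG
Dnajc3 (chr14:118937827-118937845): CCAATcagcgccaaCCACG
Hsp90b1 (chr10:86705533-86705551): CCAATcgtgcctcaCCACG
Hsp90b1 (chr10:86705638-86705656): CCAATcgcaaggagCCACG
Pdia6 (chr12:17266491-17266509): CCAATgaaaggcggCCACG

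Creld2 and Alg12 are read away from each other and share the same 19 bases, and Hsp90b1 held a pair of matches. Chaperones made up much of the set, since 6 of the 13 listed chaperones with a window held the element. Dnajc3, a BiP cochaperone, stood at 83.6 and 401 TPM (2.25). Zfp57, a zinc finger protein of imprinting control and no ER protein, stood at 21.8 TPM in the control, 15.6 in glucose depletion, 20.5 in glutamine depletion, 14.1 in hypoxia, 21.4 in oxidative stress, 6.81 in osmotic stress and 88.1 in ER stress (2.43), and was chosen for its place in this set. The 7 genes with the element inside 2-fold ran from 0.88 (Xlr3b) to -0.55 (Spats2l), and they include Calr and Canx. The CHOP-ATF4 composite core, TGATGNAAT on either strand, was in 1.08% of genes with a window and in 45 genes compared, of which 7 were higher and 4 lower past 2-fold, with a median of 0.27. Paired E boxes, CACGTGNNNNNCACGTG, matched 0 of 32851 promoters. Since this exact pattern was found nowhere, the search could not tell Txnip from any other gene. A match is a string of letters and was not tested for binding.

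**Figure D3:**
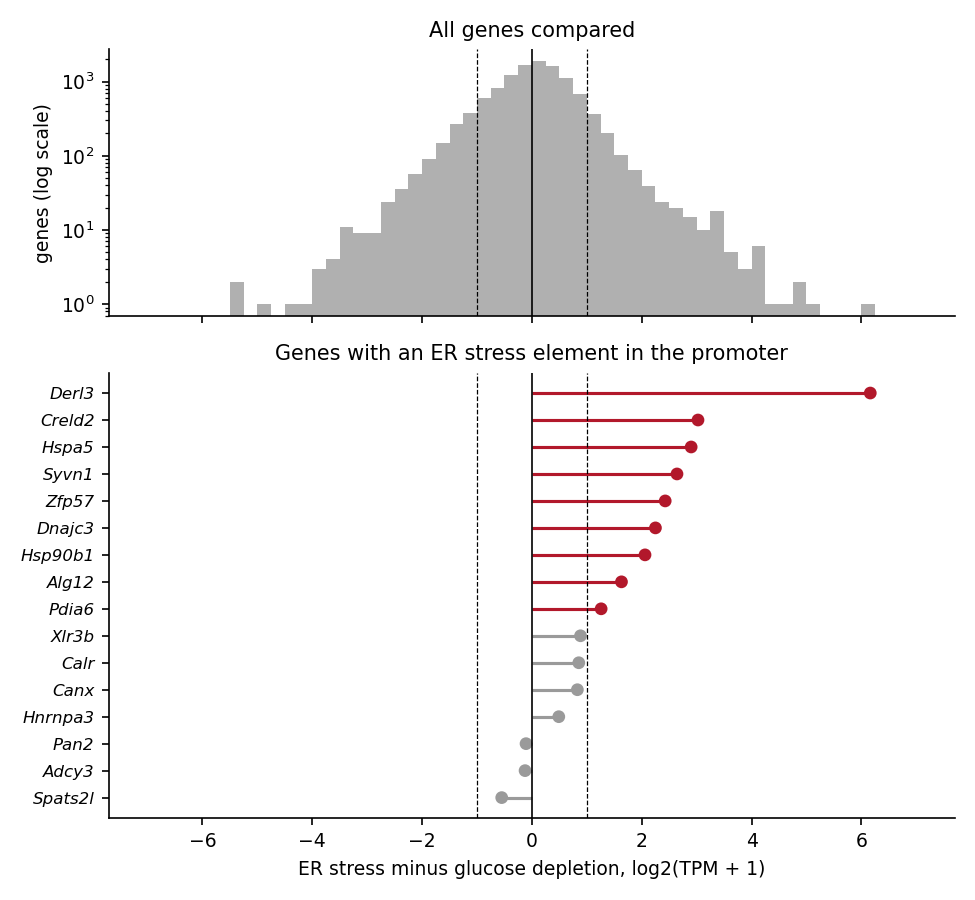
Difference between ER stress and glucose depletion on the log2(TPM + 1) scale (horizontal axis), as a histogram over the 11547 genes compared with a log count axis (top) and for each of the 16 genes with an exact ER stress element (bottom). Dashed lines mark 2-fold, and 9 of the 16 genes, in red, are past it on the side of ER stress.

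Some genes that follow glucose itself were also apart between the libraries. Arrdc4 (chromosome 7, 68736995 to 68749241), an arrestin gene controlled with Txnip by MondoA, stood at 7.38 TPM in the control, 1.97 in glucose depletion, 10.0 in glutamine depletion, 8.70 in hypoxia, 9.82 in oxidative stress, 5.54 in osmotic stress and 31.1 in ER stress (3.43). Arrdc4 was the single protein-coding gene compared for which glucose depletion lay more than 2-fold below all 6 others, and ER stress was its highest library. Of the 7 genes compared on this list 3 were higher past 2-fold and 0 lower, with a median of 0.28. The third was Arrdc2 at 1.66 and 6.23 TPM (1.44), which a larger pseudocount puts inside 2-fold. The arrestin genes Arrdc3 (-0.57) and Arrdc1 (-0.68) lay the other way. Mlxip (0.28) and Mlx (0.10), listed beside the arrestins, differed little. Palm2 and Fahd2a, the 2 protein-coding genes for which glucose depletion lay more than 2-fold above all 6 others and which were picked out for that, stood at 19.4 and 2.59 TPM (-2.51) and at 10.2 and 3.23 TPM (-1.40).

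Of 40 genes of glycolysis and glucose transport 3 were higher in ER stress and 7 lower, with a median of -0.25. The share higher was close to the 7.68% of all genes, and the share lower was above the 9.02% of all genes. Slc2a6, a glucose transporter gene of intracellular membranes, stood at 4.53 TPM in the control, 3.71 in glucose depletion, 2.74 in glutamine depletion, 4.10 in hypoxia, 3.34 in oxidative stress, 4.42 in osmotic stress and 85.7 in ER stress (4.20), and the other 6 libraries were all under 5 TPM. Hk2, the inducible hexokinase, was at 13.3 and 48.9 TPM (1.81). The lactate exporter gene Slc16a3 was lower at 27.4 and 9.06 TPM (-1.50), and highest in hypoxia at 391 TPM, as was Aldoc at 20.1 TPM, with 3.45 and 0.773 TPM in glucose depletion and ER stress (-1.33). Cholesterol and fatty acid synthesis had a median of 0.13 over 36 genes. Past 2-fold 4 were higher and 1 lower, beside 7.68% and 9.02% of all genes. Mvd and Fdps encode enzymes of the mevalonate pathway. Mvd stood at 28.7 TPM in the control, 14.7 in glucose depletion, 8.87 in glutamine depletion, 16.9 in hypoxia, 32.7 in oxidative stress, 31.0 in osmotic stress and 61.8 in ER stress (2.00). Fdps stood at 96.2 and 248 TPM (1.36), with 193 in the control and 257 in oxidative stress, and glucose depletion was its lowest library. Glucose depletion was the highest of the 6 other libraries for 0 genes of this list, where over all genes it was so for 15.9%. It was the lowest of them for 13, a place that was not counted over all genes. ER stress was the highest of the 7 for 3, beside 34.7% of all genes. Acat2 ran the other way at 21.1 and 8.39 TPM (-1.24), just inside 2-fold with a pseudocount of 5 TPM (-0.96).

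Secreted matrix proteins are the main cargo of the fibroblast ER. Of 58 collagen and matrix genes 25 were lower in ER stress and 0 higher past 2-fold, 56 were below 0, and the median was -0.92. The list took 2.26% of the TPM in ER stress and 3.99% in glucose depletion. Mfap2, of the elastic microfibrils, stood at 96.5 TPM in the control, 81.1 in glucose depletion, 90.9 in glutamine depletion, 86.9 in hypoxia, 80.8 in oxidative stress, 90.9 in osmotic stress and 13.1 in ER stress (-2.54). ER stress alone was low, and the other 6 libraries lay between 80.8 and 96.5 TPM. The small proteoglycan genes Lum and Ogn were at 39.7 and 6.42 TPM (-2.46) and at 167 and 34.2 TPM (-2.25), and Col8a1 was at 178 and 36.9 TPM (-2.24). The 8 genes reported as substrates of IRE1-dependent decay, of which Sparc and Col6a1 are also in the matrix list, were all below 0, 4 past 2-fold, with a median of -1.31. Scara3 was at 29.5 TPM in the control, 27.1 in glucose depletion, 28.3 in glutamine depletion, 23.4 in hypoxia, 24.5 in oxidative stress, 26.4 in osmotic stress and 1.70 in ER stress (-3.38), Col6a1 at 522 and 121 TPM (-2.10), Pmp22 at 128 and 33.4 TPM (-1.91) and Bloc1s1, the best known substrate, at 122 and 36.7 TPM (-1.71). Decay and transcription cannot be told apart from TPM.

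Of the 21 targets of YAP and SRF, factors that follow cell density and actin, 13 were lower in ER stress past 2-fold and 0 higher, with a median of -1.10. Their largest gaps were in genes of the contractile cytoskeleton. Myl9, a myosin light chain, stood at 1019.6 TPM in the control, 1168 in glucose depletion, 867 in glutamine depletion, 938 in hypoxia, 761 in oxidative stress, 801 in osmotic stress and 205 in ER stress (-2.50), with glucose depletion the highest of the 7 libraries and ER stress the lowest. Tpm1 stood at 3496 and 672 TPM (-2.38), Cnn1 at 349 and 80.0 TPM (-2.11) and Vcl at 338 and 89.6 TPM (-1.90). Glucose depletion was the highest of the 6 other libraries for 9 of these 21 genes.

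Growth factors were the subject of the study. Of the 11 that its text names, 5 were lower in ER stress and 2 higher past 2-fold, and 4 were inside it, with a median of -0.84. These 11 were chosen by the study on these samples, so their direction is no independent evidence. Vegfd was at 27.6 TPM in the control, 26.6 in glucose depletion, 23.0 in glutamine depletion, 39.8 in hypoxia, 23.0 in oxidative stress, 39.8 in osmotic stress and 6.20 in ER stress (-1.94), and ER stress alone was low. Bmp4 stood at 50.8 and 15.5 TPM (-1.65), with oxidative stress as low as ER stress at 15.7 TPM. Pdgfd was at 25.8 and 8.01 TPM (-1.57), Hgf at 9.32 and 2.66 TPM (-1.50) and Ctgf at 1343 and 628 TPM (-1.10). With a pseudocount of 5 TPM Hgf came inside 2-fold (-0.90), as did Areg on the other side (0.88). Gdf15, a stress-induced cytokine, was higher at 4.27 and 17.9 TPM (1.84), and Areg was at 0.617 and 5.33 TPM (1.97), close to the pseudocount. Vegfa stood at 103 and 169.9 TPM (0.71), Il11 at 8.61 and 4.35 TPM (-0.84), Hbegf at 97.8 and 82.1 TPM (-0.25), and Lif at 18.5 and 18.3 TPM (-0.01), all inside 2-fold.

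Csf1, the macrophage growth factor that the study follows, was at 411 TPM in glucose depletion and 399 TPM in ER stress, a difference of -0.04. Of 32 other growth factors and cytokines 11 were lower and 3 higher past 2-fold, beside 9.02% and 7.68% of all genes. Their median was -0.83. The largest difference on the side of ER stress was Fgf21, a hormone of the stress response, at 0.528 TPM in the control, 0.205 in glucose depletion, 0.672 in glutamine depletion, 1.78 in hypoxia, 0.654 in oxidative stress, 0.406 in osmotic stress and 19.6 in ER stress (4.10). Wisp2 was at 459.5 and 53.6 TPM (-3.08), Tgfb3 at 269 and 39.9 TPM (-2.73) and Igf1 at 16.5 and 3.12 TPM (-2.08).

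**Figure D4:**
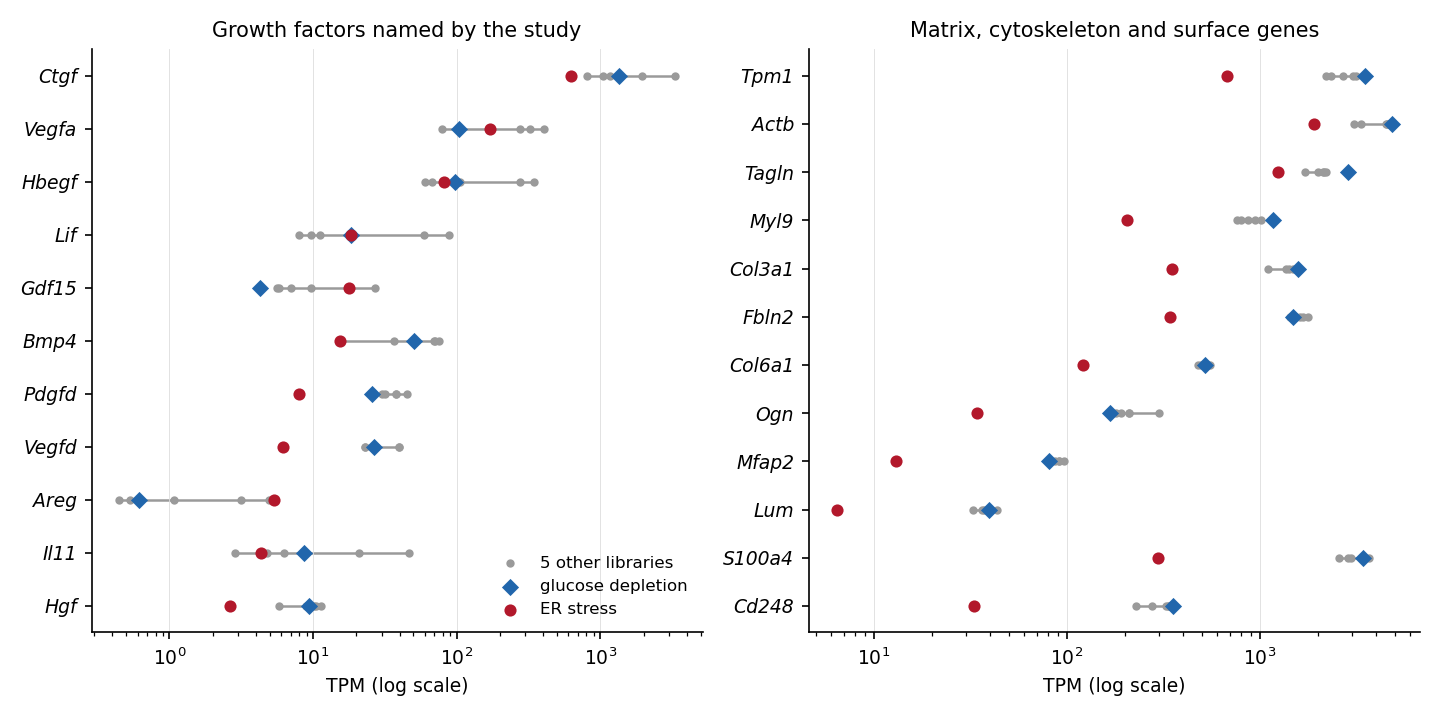
TPM on a log scale (horizontal axis) of the 11 growth factors named by the study (left) and of matrix, cytoskeleton and surface genes (right) in the 7 libraries, 1 point per library. Red circles are ER stress, blue diamonds glucose depletion and grey points the 5 other libraries, with a line over their range. The genes on the right were chosen for drawing, and ER stress lies below all other libraries for each of them. Over the whole lists it did so for 52 of 58 collagen and matrix genes and 15 of 21 targets of YAP and SRF. On the left it does so for Ctgf, Bmp4, Pdgfd, Vegfd and Hgf.

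Of 36 genes of mitosis and the spindle 22 were lower in ER stress and 0 higher past 2-fold, all were below 0, and the median was -1.03, which a pseudocount of 5 TPM moves inside 2-fold. Nuf2, of the kinetochore, stood at 33.9 and 10.2 TPM (-1.64), Nusap1 at 25.5 and 8.41 TPM (-1.49), Prc1 at 88.8 and 31.4 TPM (-1.47), and the checkpoint kinase gene Bub1b at 26.6 and 9.01 TPM (-1.46). Of 42 genes of DNA replication 9 were lower and 0 higher past 2-fold, 5 were above 0, with a median of -0.70, and Tk1 was furthest apart at 51.5 and 11.02 TPM (-2.13). Glucose depletion was the highest of the 6 other libraries for 22 of these genes. Fewer cycling cells and less of these RNAs per cell cannot be told apart. Myc went the other way at 56.8 TPM in the control, 68.0 in glucose depletion, 144 in glutamine depletion, 51.3 in hypoxia, 106 in oxidative stress, 95.4 in osmotic stress and 265 in ER stress (1.95). It was the single gene higher past 2-fold among 13 G1 regulators, of which 1 was lower. Both shares were close to the 7.68% and 9.02% of all genes. In the BCL2 family, which controls mitochondrial cell death, 2 of 12 genes were lower and 0 higher past 2-fold. Over all genes the shares were 9.02% and 7.68%, and the median of this list was 0.02. Bok was at 34.7 and 5.90 TPM (-2.37), and Bcl2l11 (BIM) at 7.91 and 3.44 TPM (-1.01), the second inside 2-fold with a pseudocount of 5 TPM (-0.61).

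Chaperones of the cytosol and of mitochondria were read beside those of the ER. Among 25 cytosolic heat shock genes 0 were higher and 3 lower past 2-fold, beside 7.68% and 9.02% of all genes. Their median was -0.01. Cryab stood at 245 and 66.4 TPM (-1.87), Fkbp5 at 28.8 and 10.1 TPM (-1.43) and Hspb1 at 195 and 74.1 TPM (-1.38). In mitochondria 4 of 15 chaperone and protease genes were higher and 0 lower, with 14 above 0 and a median of 0.53. The protease gene Lonp1 was at 60.7 and 204 TPM (1.73), Dnaja3 at 42.4 and 100.3 TPM (1.22) and Hspa9 at 400.1 and 914 TPM (1.19). The 13 mRNAs encoded in mitochondria were all below 0 but inside 2-fold, with a median of -0.45.

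Genes of other stress programs lay mostly inside 2-fold. Of 12 NRF2 targets 3 were higher past 2-fold and 0 lower, led by the heme oxygenase gene Hmox1 at 266 TPM in the control, 217 in glucose depletion, 265 in glutamine depletion, 497 in hypoxia, 6055 in oxidative stress, 256 in osmotic stress and 1802 in ER stress (3.05), highest in oxidative stress. Txnrd1 was at 208 and 617 TPM (1.57). Of 27 autophagy genes 2 were higher past 2-fold, no larger a share than the 7.68% of all genes, with a median of 0.36. They were Sqstm1 (p62) at 346 and 1507 TPM (2.12) and Atg13 at 16.4 and 51.1 TPM (1.58). Of 15 HIF targets 1 was higher, no larger a share than over all genes, and 3 were lower, beside 9.02% of all genes. Ndrg1, which also responds to other stresses, was at 11.4 and 60.6 TPM (2.31), and Ankrd37 at 8.67 and 1.32 TPM (-2.06).

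**Figure D5:**
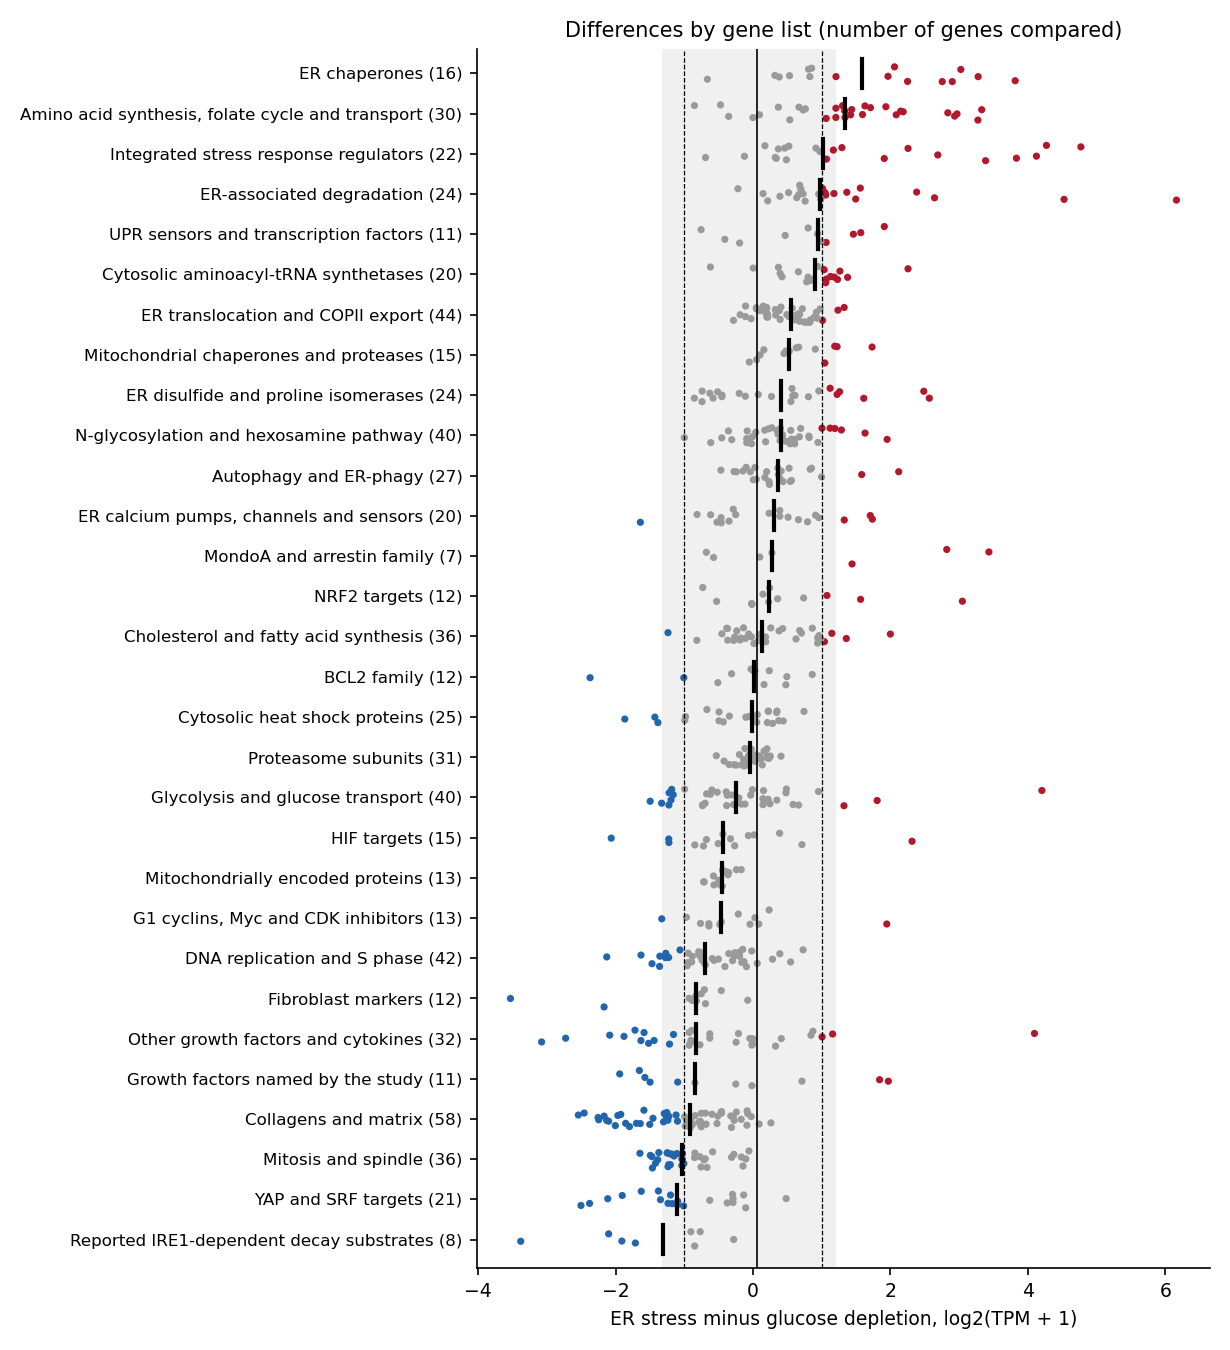
Difference between ER stress and glucose depletion on the log2(TPM + 1) scale (horizontal axis) for the genes of each list drawn, 1 point per gene and a black bar at the median, with the macrophage, endothelial, epithelial and skeletal muscle markers not drawn. Red and blue points are past 2-fold (dashed lines), the shaded band holds the central 90% of all genes compared, and the lists are ordered by median from ER chaperones at the top to reported substrates of IRE1-dependent decay at the bottom.

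Ranked over all genes compared, the 15 largest positive differences were 12 protein-coding genes and 3 noncoding ones. Besides Derl3, Atf3, Herpud1, Ddit3, Slc2a6, Ppp1r15a, Fgf21, Chac1 and Dnajb9 they held Car6, a secreted carbonic anhydrase, at 4.45 TPM in the control, 2.75 in glucose depletion, 4.65 in glutamine depletion, 9.37 in hypoxia, 3.07 in oxidative stress, 3.74 in osmotic stress and 113 in ER stress (4.92). Dlg2 stood at 0.321 and 23.5 TPM (4.21), Avil at 0.355 and 17.5 TPM (3.77) and the noncoding RMST_1 at 0.323 and 20.7 TPM (4.03). The short RNAs Rnu73b and Snhg7 were listed at 0 in glucose depletion and at 35.2 and 17.8 TPM in ER stress. Both were also listed at 0 in hypoxia.

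Of the 15 largest negative differences only 6 were protein-coding, and 9 belonged to genes listed at 0 in some library. The 6 were Nrep at 23.0 and 0.643 TPM (-3.87), the matrix proteoglycan gene Prelp at 44.2 and 2.45 TPM (-3.71), the plasminogen activator gene Plau at 65.2 and 4.29 TPM (-3.64), S100a4, the activin antagonist gene Fst at 71.6 and 5.47 TPM (-3.49) and Lrrc15 at 27.7 and 1.58 TPM (-3.48). S100a4, a calcium-binding protein used as a fibroblast marker, stood at 3444 TPM in the control, 3428 in glucose depletion, 2983 in glutamine depletion, 2867 in hypoxia, 2585 in oxidative stress, 3685 in osmotic stress and 296 in ER stress (-3.53), low in ER stress alone. The other 9 were SNORD113, DQ267102, Trbj2-3, AC166358.4, 1700030C10Rik, AL928567.1, AC139186.1, AC149294.2 and n-TSaga9, of which 1700030C10Rik was the one above 0 in ER stress. SNORD113 and AC149294.2 had no GENCODE entry. The rest were annotated as small RNAs, pseudogenes or a T cell receptor segment. SNORD113 and DQ267102 held identical values in every library.

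Among the 1522 genes that averaged 100 TPM or more, 96 were higher and 139 lower past 2-fold, 15.4% in all. After Herpud1, Ddit3, Ppp1r15a and Dnajb9 the fifth on the side of ER stress was Rcan1, an inhibitor of calcineurin, at 39.2 TPM in the control, 30.5 in glucose depletion, 67.3 in glutamine depletion, 39.5 in hypoxia, 191 in oxidative stress, 82.7 in osmotic stress and 345 in ER stress (3.46). On the other side S100a4 was followed by the stromal surface gene Cd248 at 356 and 33.0 TPM (-3.39), Oaf at 268 and 30.3 TPM (-3.10), Wisp2, and the syndecan gene Sdc4 at 173 and 22.8 TPM (-2.87).

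The fibroblast label held in both libraries, although its markers were not level between them. All 12 fibroblast markers were detected and all were below 0, 2 past 2-fold (S100a4 and Col3a1), with a median of -0.83. Col1a1 stood at 3313 and 1739.9 TPM and Vim at 3501 and 1966 TPM. Of the 10 macrophage markers 1 (Cd68) reached a mean of 2 TPM, and Adgre1 was listed at 0 in both libraries. The endothelial and epithelial lists each had 1 of 7 members at that level, Kdr and Krt18, and Epcam and Pecam1 were under 0.1 TPM in both libraries. Of 7 skeletal muscle markers Des and Acta1 passed the minimum, both lower in ER stress past 2-fold (-1.30 and -2.00), while Myod1, Myog and Myf5, which define the lineage, were listed at 0 in both libraries apart from Myod1 at 0.107 TPM in ER stress.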

How the data were processed

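RNA was measured by paired-end sequencing (76 bases from each end) of stranded mRNA libraries, 1 per condition. The authors estimated transcript abundance with kallisto 0.43.1 against GRCm38 transcripts of Ensembl release 90 and deposited TPM summed per gene. Those TPM are shares of a library, so that a gene's value also moves when others take more or less; Hspa5 alone took 1.26% of the ER stress library. No depth, counting interval or test follows from them.

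From the deposited TPM, log2(TPM + 1) differences were computed for genes that averaged 2 TPM or more over the 7 libraries, and a symbol on several rows was counted once, from the row with the highest mean. Genes were grouped in 34 lists written from general knowledge, of whose 750 symbols 709 were compared; March6 was not found under its symbol. The members and lists were chosen with earlier results of these data known. Named genes were the markers, the 15 largest differences in each direction, the 5 largest in each direction among genes that averaged 100 TPM or more, the growth factors of the study's text with Csf1, and up to 4 members per list or more where a list needed them. GENCODE M21 (GRCm38) gave gene types and locations, matched by Ensembl identifier, and RefSeq (GRCm38.p6) the promoters, matched by symbol, with 2639 genes compared left without a window. The planned count of proteins ending in an ER retention signal was not run, for lack of protein sequences here. The counting was tested on simulated data. The steps ran in Python 3.11.15 with pandas 2.3.3 and numpy 2.4.6, and the plots were drawn with matplotlib 3.10.9.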

Additional observations from a re-analysis of the deposited data

How the results depend on the processing

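The counts of genes past 2-fold moved with the threshold and the pseudocount. With 1.5-fold in place of 2-fold, 2246 genes were higher and 2163 lower; with 3-fold the counts were 281 and 332, and with 4-fold 146 and 158. A pseudocount of 5 TPM gave 565 and 541, and a mean of at least 10 TPM left 661 lower. Under the other alternatives (a pseudocount of 0.1 TPM, no filter, a filter on the libraries compared, centring, rescaling without mitochondrially encoded or the 100 most abundant genes, other rules on names, summed rows) both counts stayed within 1.5-fold of the reported ones. All 31 medians, of the lists and of genes with an ER stress element, moved by at most 0.40 under all alternatives that give them, and 0 values changed sign past 2-fold. The medians of the integrated stress response (0.91 with a pseudocount of 5 TPM, 0.97 after centring or rescaling without abundant genes) and of mitosis (-0.86 with 5 TPM) came inside 2-fold. Of 157 named genes, 12 came inside 2-fold under some alternative (Acat2, Aldoc, Areg, Arrdc2, Bcl2l11, Car9, Eif2ak3, Gclc, Gins1, Grpel2, Hgf and Sec11c), and 0 reversed. No replicate could be left out, and no paired analysis was possible because each condition had 1 library.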

Other observations

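Leaving out every symbol that starts with Gm also removed 12 named protein-coding genes that passed the expression minimum, and they were read separately after their values were seen. Gmds, which makes GDP-fucose from GDP-mannose, stood at 21.0 TPM in the control, 19.6 in glucose depletion, 20.0 in glutamine depletion, 17.5 in hypoxia, 20.5 in oxidative stress, 23.1 in osmotic stress and 58.5 in ER stress, a difference of 1.53 from glucose depletion to ER stress and high in ER stress alone. Gmppb, which makes the GDP-mannose used in N-glycans, was at 53.0 TPM in glucose depletion and 82.3 TPM in ER stress (0.63), and glucose depletion was the highest of the 6 other libraries. Gmpr, a purine nucleotide reductase, was the one lower past 2-fold, at 10.5 and 2.53 TPM (-1.70). Gmnn, which encodes the replication inhibitor geminin, was at 27.2 and 17.5 TPM (-0.61). Over all 1282 rows left out by name, 37.3% were past 2-fold, against 16.7% of the genes compared.

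The 2 libraries were also placed among all 21 pairs of the 7. ER stress against glucose depletion, at 16.7% of genes past 2-fold, was the closest of the 6 pairs that include ER stress, and ER stress against osmotic stress, at 26.4%, the most distant. Glucose depletion against the control, at 1.23%, was the closest pair of all. The times differ between these pairs, since oxidative and osmotic stress lasted 3 h.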
